A study of Lens culinaris with 50 samples.

Results

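The step from the globular to the heart stage was examined in hand-dissected embryos of lentil (Lens culinaris, cultivar CDC Gold), by RNA sequencing of 2 heart libraries and 2 globular libraries, 4 of the 50 libraries in the series. All plants were of the same cultivar, grown in long days and untreated apart from emasculation and hand pollination, so the compared groups are heart embryo and globular embryo, with heart and globular seed coat and whole seed, and torpedo and quadrant embryo, as comparisons. The other libraries, each group with 2, cover embryo, seed coat and whole seed from the zygote through the quadrant, globular, heart and torpedo stages to the early bent, late bent and mature embryo, and the unfertilized ovule. The seed coat sample was the tissue that remained once the embryo had been taken out. The labels do not give the number of seeds in a library, nor the plants or days from which they came, so the spread between replicates may be technical.

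A globular embryo is a ball of cells with a suspensor below it, in which the outer cell layer is already set apart. At the heart stage a pair of cotyledon primordia grows out beside the future shoot apex and the embryo becomes bilaterally symmetric, a change known from Arabidopsis to depend on directed auxin flow. In legumes the cotyledons later fill most of the seed and store its protein. The files identify genes by accession-like names of the form Lcu.2RBY.1g000000 and pair none with a gene name, so the genes below are described by their levels and no function is given.

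Levels are given as normalized reads, which are read counts divided by 1 factor per library. The heart libraries held 35634980 and 19686048 reads and the globular libraries 23520800 and 25907793, against 13019472 to 35634980 in all libraries. Of all genes in the table, 48.9% and 54.3% were at 0 in the heart libraries, and 54.1% and 52.9% in the globular libraries. Across tested genes, the Spearman correlation was 0.975 between the heart replicates, 0.978 between the globular replicates and 0.962 to 0.972 between a heart and a globular library. The mean chi-square per gene between read counts was 27.8 for the heart replicates and 75.3 for the globular replicates. For a heart and a globular library it was 43.3, 44.1, 47.7 and 86.2. By this measure the globular replicates lay further apart than most of these pairs. A set of 42 genes typical of embryo over seed coat, chosen on quadrant and torpedo libraries, had median levels of 9090 and 10659 normalized reads in the heart embryos and 12679 and 9990 in the globular embryos. For 90 genes typical of seed coat, chosen the same way, the medians were 25.9 and 52.2 in heart embryos and 50.2 and 61.3 in globular embryos, while seed coat at these stages had 4042 to 4851. The embryo libraries therefore carried their labelled tissue at both stages. None of the embryo-typical genes passed the test between the stages, and of the seed coat-typical genes 1 was lower at heart and 0 were higher.

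Heart embryos differed from globular embryos in 378 of 29440 tested genes (1.28%), at a fold of at least 2 and an adjusted p under 0.05 in limma with Benjamini-Hochberg adjustment. In heart embryos 149 genes were higher (0.506%) and 229 were lower (0.778%). The median fold on the log2(normalized reads + 1) scale was 4.54 among the higher genes and 9.48 among the lower ones, against a median log2 change of 0 over all tested genes. With genes at 0 set to the bound that 3 counts per library allow, the median log2 changes were 2.11 and -2.96. Most changes were in genes of low or middle level: 79 of the higher and 91 of the lower genes reached 100 normalized reads in the higher stage, and 10 and 16 reached 1000. In bulk tissue, fewer cells of a type and less RNA per cell cannot be told apart. Both libraries of the higher stage were above both of the lower in 148 of the 149 higher and all 229 lower genes, which was also a condition for the genes named below. The same libraries made the calls, so this separation adds no support. Its share among all tested genes was not counted. The plot of heart against globular levels shows that the lower genes include a group that had almost no reads left at heart.

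**Figure D1:**
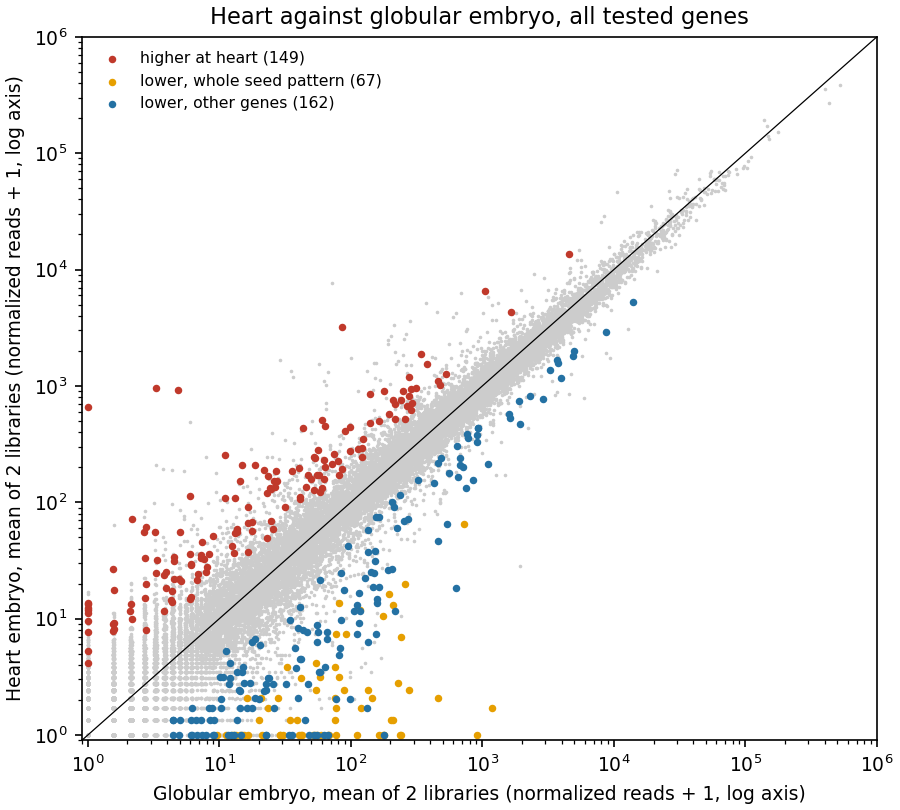
Mean normalized reads (+ 1, log axes) of each tested gene in 2 heart embryo libraries (vertical) and 2 globular embryo libraries (horizontal); the line marks equal levels. The 149 higher genes lie above the line, and many of the 67 genes in orange, described with the whole seed pattern, lie on the floor of the plot at 0 reads in heart embryos.

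The numbers of called genes depended on single libraries. Without heart replicate 1 there were 67 higher and 192 lower genes, and without heart replicate 2 there were 178 and 80. Without globular replicate 1 there were 102 higher and 54 lower genes, and without globular replicate 2 there were 54 and 140. The share of higher genes among those called was thus 25.9% to 68.99%, against 39.4% with all libraries. With DESeq2, which uses the same factors on the recovered reads, 270 were higher and 257 lower, a share of 51.2%.

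Among the genes that rose were 3 with identifiers close to each other, 2 of them at high levels. Lcu.2RBY.7g056120 had 6117 and 6961 normalized reads in heart embryos, against 1478 and 610.5 in globular embryos (log2 change 2.78, SE 0.46, limma adjusted p = 0.0011). Lcu.2RBY.7g056210 had 2537 and 3924 in heart embryos and 120.5 and 47.5 in globular embryos (log2 change 5.36, SE 1.19, limma adjusted p = 0.0163). Lcu.2RBY.7g056090, the tested gene next to Lcu.2RBY.7g056120, had 86.1 and 129 in heart embryos and 5.91 and 14.4 in globular embryos. All 3 went on to higher levels at torpedo, with means of 14203, 18718 and 1946 normalized reads. They then parted: Lcu.2RBY.7g056120 stayed high to the mature stage (30317), whereas Lcu.2RBY.7g056210 was at 3.36 and Lcu.2RBY.7g056090 at 24.2 in mature embryos. The call of Lcu.2RBY.7g056210 was lost without any 1 of the 4 libraries (limma adjusted p of 0.0615 and 0.119 without heart replicates 1 and 2, 0.0548 and 0.165 without globular replicates 1 and 2). That of Lcu.2RBY.7g056120 was lost without globular replicate 2 (limma adjusted p = 0.0582), and that of Lcu.2RBY.7g056090 without globular replicate 1 (0.195) or heart replicate 2 (0.0962).

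Among the 15 named higher genes, only Lcu.2RBY.1g059720 and Lcu.2RBY.7g072040 kept their call whichever of the 4 libraries was left out. Lcu.2RBY.1g059720 had 1790 and 1993 normalized reads in heart embryos and 492 and 184 in globular embryos (log2 change 2.65, SE 0.38, limma adjusted p = 0.000186). It was at 141 at quadrant, 7806 at torpedo and 11107 at early bent, so that heart lay inside a climb over several stages. Its call was lost when only the 4 heart and globular libraries were fitted (limma adjusted p = 0.216), while that of Lcu.2RBY.7g072040 was kept. Lcu.2RBY.7g072040 had 275 and 140.2 normalized reads in heart embryos and 20.1 and 7.73 in globular embryos (log2 change 3.86, SE 0.60, limma adjusted p = 0.000338). Its mean was 1637 at torpedo, 77738 at late bent and 219516 at the mature stage, after 143 at zygote and 64.7 at quadrant. Globular was thus its lowest stage, and heart the first of several stages with ever higher means.

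Genes that were already abundant at the globular stage changed by smaller folds. Lcu.2RBY.5g050600 had 13384 and 13674 normalized reads in heart embryos and 4374 and 4725 in globular embryos (log2 change 1.57, SE 0.39, limma adjusted p = 0.0346). The replicates lay close together at both stages, but the call was lost without any 1 of the 4 libraries (limma adjusted p from 0.141 to 0.242). Lcu.2RBY.1g017700 had 5855 and 2700 in heart embryos and 1584 and 1728 in globular embryos, and its call was lost without heart replicate 1 (0.505) or either globular replicate (0.167 without replicate 1 and 0.0777 without replicate 2) in limma. Lcu.2RBY.1g076570 was a gene of the heart stage itself, with 143 and 363 normalized reads in heart embryos and 20.1 and 0 in globular embryos. It was at 2.92 at quadrant, 48.6 at torpedo and 3.36 in mature embryos, and at 1.2 or fewer mean normalized reads in seed coat at every stage but torpedo (1.47). Its call was lost without heart replicate 2 or globular replicate 2 (limma adjusted p of 0.0567 and 0.187). Lcu.2RBY.6g059940 had 194 and 183 in heart embryos against 30.7 and 11.04 in globular embryos, Lcu.2RBY.6g069280 had 117 and 183 against 23.6 and 3.31, and Lcu.2RBY.2g002050 had 136 and 87.3 against 1.18 and 8.83. Of these 3 genes, calls were lost without heart replicate 1 (Lcu.2RBY.6g059940, Lcu.2RBY.2g002050), heart replicate 2 (Lcu.2RBY.6g059940, Lcu.2RBY.6g069280), globular replicate 1 (Lcu.2RBY.2g002050) or globular replicate 2 (Lcu.2RBY.6g059940, Lcu.2RBY.6g069280), at limma adjusted p of 0.0638 to 0.241.

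**Figure D2:**
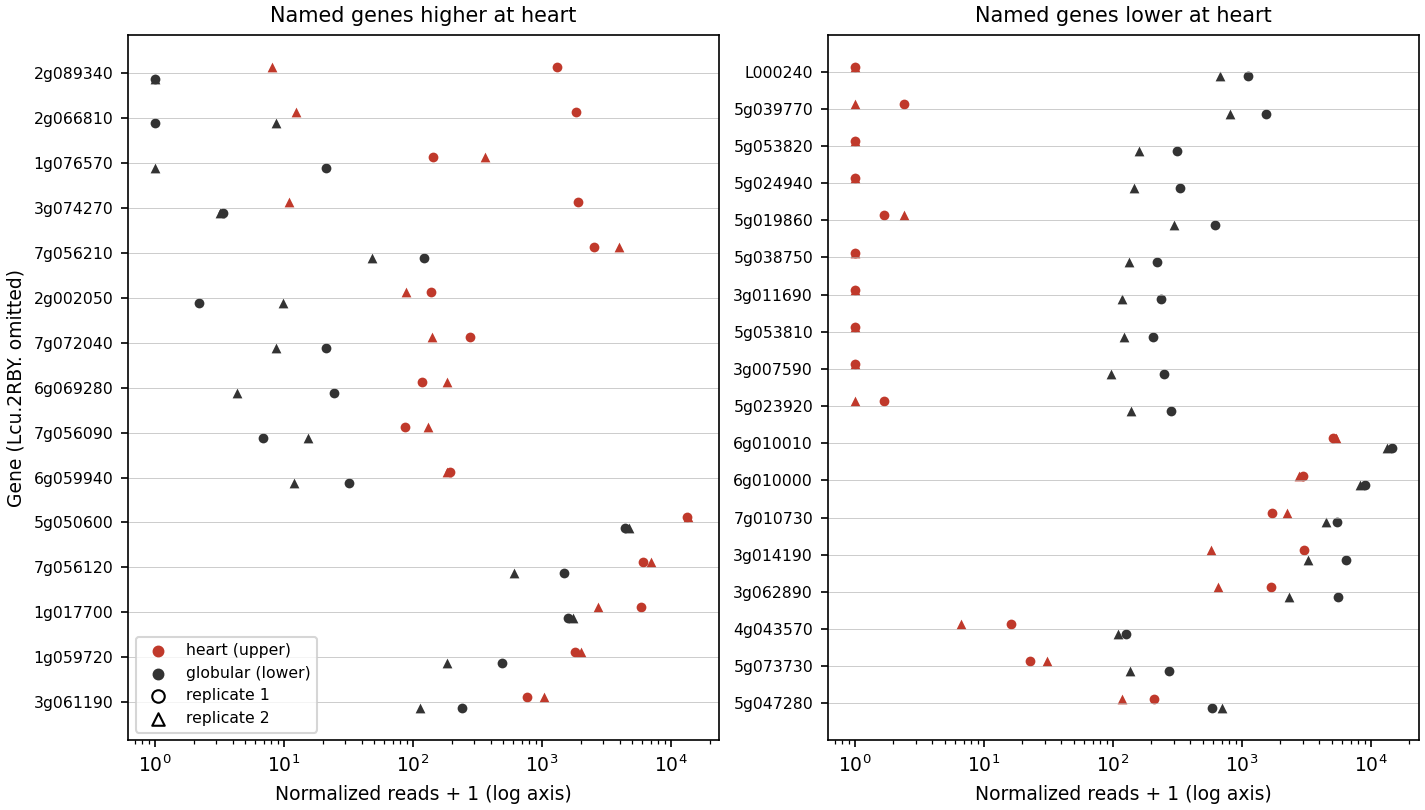
Normalized reads (+ 1, log axis) of the named genes in each library, with heart embryos in red above globular embryos in black and circles and triangles for replicates 1 and 2; genes higher at heart are on the left and genes lower at heart on the right. The top 2 genes on the left and Lcu.2RBY.3g074270 have their heart libraries far apart (1309 and 7.16 in Lcu.2RBY.2g089340), while most lower genes with the largest folds are at or near 0 in both heart libraries.

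In 3 of the 10 largest rises, heart replicate 1 alone was high. Lcu.2RBY.2g089340 had 1309 and 7.16 normalized reads in heart embryos and 0 and 0 in globular embryos. Lcu.2RBY.2g066810 had 1823 and 11.4 in heart embryos and 0 and 7.73 in globular embryos. Lcu.2RBY.3g074270 had 1896 and 10.02 in heart embryos and 2.36 and 2.21 in globular embryos. Without heart replicate 1 none of the 3 passed in limma (adjusted p of 0.222, 0.852 and 0.724). Leaving out globular replicate 1 also ended the calls of Lcu.2RBY.2g066810 (0.536) and Lcu.2RBY.3g074270 (0.146), and leaving out globular replicate 2 that of Lcu.2RBY.3g074270 (0.123). All 3 are abundant late, with means of 275744, 35674 and 42803 normalized reads in mature embryos. Over the 113 tested genes with at least 10000 normalized reads in mature and under 200 in quadrant embryos, a list chosen after the values were seen, the median was 42.7 and 5.72 in the heart libraries and 3.54 and 7.73 in the globular libraries. Heart replicate 1 was above replicate 2 in 81 of them. In all tested genes heart replicate 1 was over 4-fold above replicate 2 in 754 genes, and the reverse held in 175; among called genes the numbers were 9 and 0 of those higher at heart and 18 and 1 of those lower at heart. Beyond leaving out each library, the part of this difference between the heart replicates in the calls was not tested.

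Most genes that rose were higher again at torpedo. The median of the 149 genes was 74.9 normalized reads at zygote, 13.6 at quadrant and 16.8 at globular, so it had dipped before the step. It was 112 at heart and 233 at torpedo, and then stayed between 210.2 and 245 to maturity. The torpedo mean was above the heart mean in 119 and at least 2 times as high in 87 of them. The highest embryo stage was torpedo in 36 genes (24.2%, against 3.59% of all tested genes), late bent in 34 (22.8% against 10.9%), early bent in 20 (13.4% against 9.49%) and heart in 15 (10.1% against 6.35%). It was mature in 35 (23.5% against 35.3%) and zygote in 9 (6.04% against 12.8%). In seed coat the same genes had a median of 158 at heart and 157 at globular. The embryo was far below this level at the globular stage and nearer to it at heart. With seed coat level, that approach follows from choosing genes that rose in embryo. The seed coat mean was above the embryo mean in 86 of the 149 genes at heart and in 121 at globular. These counts use the embryo libraries that made the calls, and the shares among all tested genes were not counted.

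**Figure D3:**
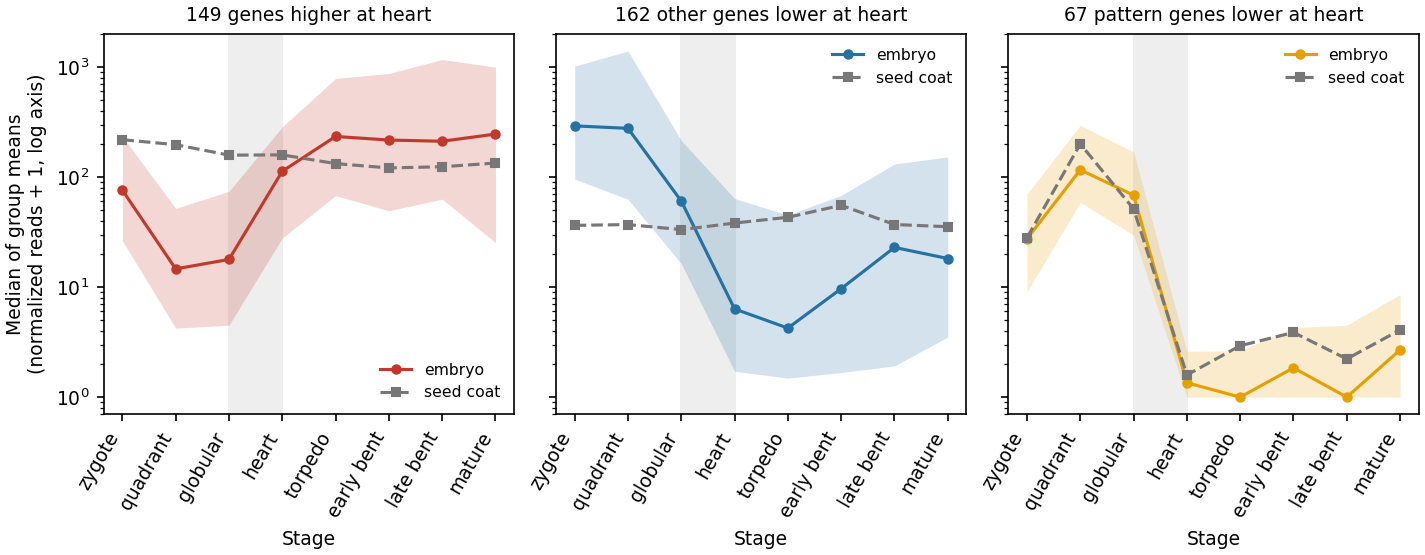
Median normalized reads (+ 1, log axis) over 8 stages of the genes higher at heart (left), the other genes lower at heart (middle) and the pattern genes lower at heart (right), in embryo (coloured, with the 25th to 75th percentile of genes shaded) and in seed coat (grey, dashed); the grey band marks the step. Across the step, seed coat is level for the left and middle groups and drops with the embryo in the third.

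An earlier and a later stage that share no library with this step gave the same directions for most called genes. Both comparisons took their spread from the same fit of all libraries. A gene with a small pooled spread is thus favoured in both, and the counts of calls below are not independent of the step. In torpedo against quadrant embryos, 4257 of 29440 tested genes were higher (14.5%) and 4152 lower (14.1%). Of the 149 genes higher at heart, 144 were higher at torpedo than at quadrant and 1 was lower, with a median log2 change of 4.01. Of the 229 genes lower at heart, 214 were lower at torpedo than at quadrant and 1 was higher, with a median log2 change of -5.37; they were 66 of the 67 genes of the whole seed pattern described below and 148 of the other 162. Without 1 of the 4 heart and globular libraries these became 48 to 144 higher and 46 to 175 lower genes, as the number called in the step itself changed.

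The lower genes fell into different courses. Of the 229, 67 followed a pattern of the whole seed libraries and are described below, after the other 162. In these 162 genes the median level was 290 normalized reads at zygote, 276 at quadrant, 59.4 at globular, 5.33 at heart and 3.24 at torpedo. The quadrant mean was above the globular mean in 149 and at least 2 times as high in 126, so the fall had mostly begun before the globular stage. The highest embryo stage was quadrant in 80 (49.4%, against 16.7% of all tested genes) and zygote in 52 (32.1% against 12.8%). It was mature in 18 (11.1% against 35.3%), late bent in 7 (4.32% against 10.9%) and globular in 5 (3.09% against 4.88%). In seed coat their median was 37.2 at heart and 32.3 at globular, and 61 of them were under 10 normalized reads in seed coat at both stages. None of the 162 passed the test in seed coat, where 30 of all 29440 tested genes were lower (0.102%) and 0 higher. At that share, a list of this size would hold few or none, so this is no trait of these genes.

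Lcu.2RBY.4g014450 had 16.1 and 18.6 normalized reads in heart embryos and 756 and 511 in globular embryos (log2 change -5.09, SE 1.04, limma adjusted p = 0.00779). It was at 4787 at quadrant and 0.489 at torpedo, and at most 11.6 in seed coat at any stage. Lcu.2RBY.7g062000 had 2.80 and 10.02 in heart embryos and 149 and 159 in globular embryos, and Lcu.2RBY.3g039980 had 8.40 and 12.9 in heart embryos and 249 and 180 in globular embryos. All 3 were named after their values were seen, among the large falls outside the whole seed pattern, and they leave out others of like size. Lcu.2RBY.5g009200 was uneven at heart, with 48.3 and 0 against 211 and 70.7 in globular embryos. Lcu.2RBY.3g025780 had 9.80 and 2.86 against 138 and 81.7, and its mean was lower at quadrant (32.2) than at globular (110). Lcu.2RBY.6g065350 had 1.40 and 0 in heart embryos against 242 and 18.8 in globular embryos, and Lcu.2RBY.3g033290, with 3.50 and 7.16 against 152 and 115, had seed coat means of 911 at heart and 1801 at globular. At quadrant Lcu.2RBY.7g062000 and Lcu.2RBY.3g039980 had been higher still (602 and 3570 normalized reads). So had Lcu.2RBY.6g065350 (667), Lcu.2RBY.3g033290 (250) and Lcu.2RBY.5g009200 (1456). Lcu.2RBY.3g070310 and Lcu.2RBY.6g069670, named the same way, were uneven at heart, with 407 and 15.7 and with 115 and 12.9 normalized reads, against 1554 and 635 and 678 and 401 in globular embryos.

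The most abundant falling genes were a neighbouring pair. Lcu.2RBY.6g010010 had 5073 and 5434 normalized reads in heart embryos and 14611 and 13354 in globular embryos (log2 change -1.41, SE 0.29, limma adjusted p = 0.00817). The next identifier, Lcu.2RBY.6g010000, had 2977 and 2778 in heart embryos and 9098 and 8229 in globular embryos (log2 change -1.59, SE 0.34, limma adjusted p = 0.0105). Both had been higher at quadrant (33465 and 33194 normalized reads), and both changed little after heart (3957 and 3660 at torpedo). If they are near-identical copies, their reads could be split between them; no sequences were used here to check this. Lcu.2RBY.6g010010 lost its call without globular replicate 1 (limma adjusted p = 0.0932) or heart replicate 1 (0.0633), and Lcu.2RBY.6g010000 without any 1 of the 4 (0.0548 to 0.121). Lcu.2RBY.7g010730 had 1727 and 2251 in heart embryos against 5455 and 4539 in globular embryos. It too was called only with all 4 libraries (limma adjusted p of 0.0516 to 0.245 without 1 of them). Lcu.2RBY.3g062890, at 22930 at zygote, had 1683 and 650 in heart embryos against 5626 and 2309 in globular embryos, and Lcu.2RBY.3g014190 had 3021 and 579.6 against 6444 and 3261. These last genes lost their calls without globular replicate 1 (limma adjusted p of 0.496 and 0.544) or heart replicate 2 (0.478 and 0.95).

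The largest falls were almost all in genes that also switched between libraries of other tissues. Lcu.2RBY.5g039770 had 1.40 and 0 normalized reads in heart embryos and 1531 and 815 in globular embryos (log2 change -9.50, SE 0.82, limma adjusted p = 2.27e-08). The ratio of globular to heart was 1235, with a 95% counting interval of 341 to 10205. Lcu.2RBY.L000240 had 0 and 0 in heart embryos and 1124 and 681 in globular embryos, at least 280-fold lower at heart, and 0 in every later embryo mean. Lcu.2RBY.5g053820 (at least 73.4-fold lower at heart), Lcu.2RBY.5g024940 (73.6), Lcu.2RBY.5g038750 (55.0), Lcu.2RBY.5g053810 (50.5) and Lcu.2RBY.3g007590 (53.4) were at 0 in both heart libraries, and had 96.0 to 332 normalized reads in each globular library. Lcu.2RBY.5g019860 had 0.70 and 1.43 in heart embryos and 618 and 296 in globular embryos, and Lcu.2RBY.5g023920 had 0.70 and 0 in heart embryos and 282 and 137 in globular embryos. Of these 9, the calls of Lcu.2RBY.5g019860, Lcu.2RBY.3g007590 and Lcu.2RBY.5g023920 were lost without globular replicate 1 (limma adjusted p of 0.0747, 0.0764 and 0.0687). The remaining gene of the 10 largest falls, Lcu.2RBY.3g011690, was outside the pattern, with 0 and 0 in heart embryos, 236 and 117 in globular embryos and 632 at quadrant. Its whole seed means ran alike, at 24.2 at quadrant, 7.82 at late bent and 0 at globular, heart and mature, and it missed the pattern by its level at late bent. DESeq2 did not call it (adjusted p = 0.467).

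These genes were collected by a pattern seen in the data and stated on whole seed libraries alone: at least 10 mean normalized reads in whole seed at quadrant and at late bent, and at most 20% of either at globular, heart and mature. The pattern held for 120 tested genes. It took in 67 of the 229 genes lower at heart (29.3%) and 0 of the 149 higher ones, and 9 of the 10 and 17 of the 20 largest falls among genes with at least 100 normalized reads. In embryo, the 67 genes, which the call itself selected, had a median log2 change of -4.77 between heart and globular, and 30 of them had 0 reads in both heart libraries. Of the 120 pattern genes, all were lower by sign at heart in embryo and 119 in seed coat. Over all tested genes the median log2 change was 0 in embryo and 0.0175 in seed coat, and the share lower by sign was not counted. The pattern was chosen after the data were seen, so these counts are a description and add no separate support.

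The detection of all 120 pattern genes is given by library. Their pattern uses no embryo or seed coat library, but it was chosen after the data were seen. Of the 120, 60 and 69 had at least 10 normalized reads in the embryo zygote libraries, 105 and 111 at quadrant, 97 and 83 at globular, 12 and 12 at heart and 10 and 12 at torpedo. In seed coat the numbers were 64 and 65 at zygote, 120 and 118 at quadrant, 74 and 109 at globular, 13 and 9 at heart and 16 and 23 at torpedo. Replicates of these embryo groups were thus alike, and both tissues dropped at the same step. Whole seed did not follow that course: the pattern itself fixed it as high at quadrant (118 and 120) and late bent (118 and 117) and low at globular (7 and 6), heart (7 and 11) and mature (20 and 10). Of the 4 whole seed groups that the pattern did not use, replicates were similar at zygote (56 and 56) and in the ovule (96 and 112), and far apart at torpedo (12 and 59) and early bent (15 and 108). At the globular stage the genes were thus on in embryo and seed coat and off in whole seed, which holds both. The labels name no plant, harvest or batch, so in embryo and seed coat a property of the libraries and the stage cannot be told apart for these genes. Without the 120 pattern genes, limma called 137 higher and 135 lower genes in heart embryos, and the share of higher genes was 50.4%.

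**Figure D4:**
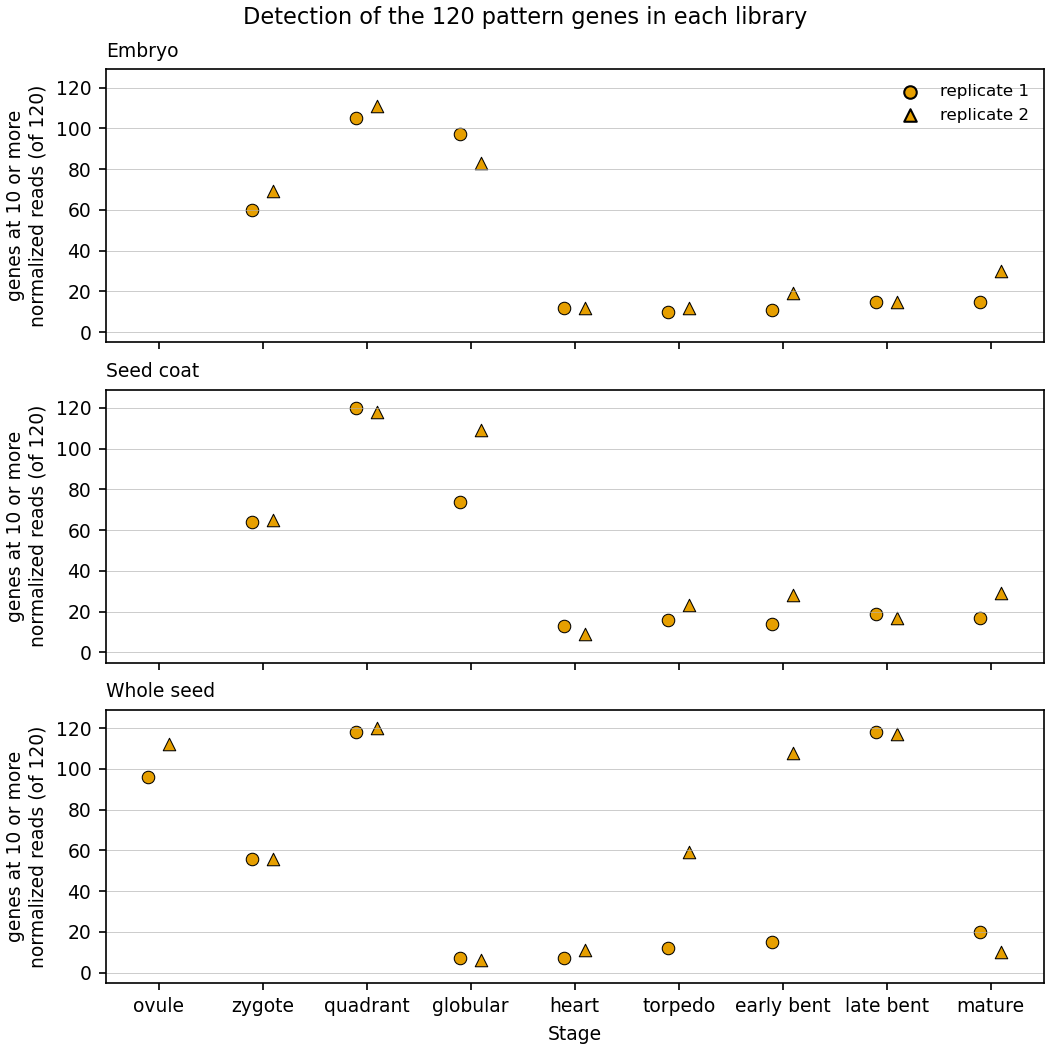
Number of the 120 pattern genes with at least 10 normalized reads in each library, by stage (horizontal) for embryo, seed coat and whole seed, with circles and triangles for replicates 1 and 2. Embryo and seed coat have 9 to 13 genes in heart and 74 to 109 in globular libraries, and the whole seed early bent replicates lie at 15 and 108; the levels of whole seed at quadrant, globular, heart, late bent and mature were fixed by the choice of genes.

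The pattern genes also shared parts of their identifiers. Those starting Lcu.2RBY.3g or Lcu.2RBY.5g made up 57 of the 67 (85.1%), against 26.6% of tested genes, 52 of the other 162 lower genes (32.1%) and 45 of the 149 higher genes (30.2%). In the zygote libraries these identifiers parted by number. The 15 pattern genes up to Lcu.2RBY.5g021810 had a median of 0.639% of their quadrant level in zygote seed coat and 3.94% in zygote embryo. The 45 from Lcu.2RBY.5g022300 on had 46.9% and 35.1%. For the 36 pattern genes starting Lcu.2RBY.3g the medians were 5.61% and 10.3%. The split by number was chosen after the values were seen. Few called genes were next to each other in the order of tested identifiers: 26 lower and 6 higher genes had a neighbour called the same way, each time as a pair.

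**Figure D5:**
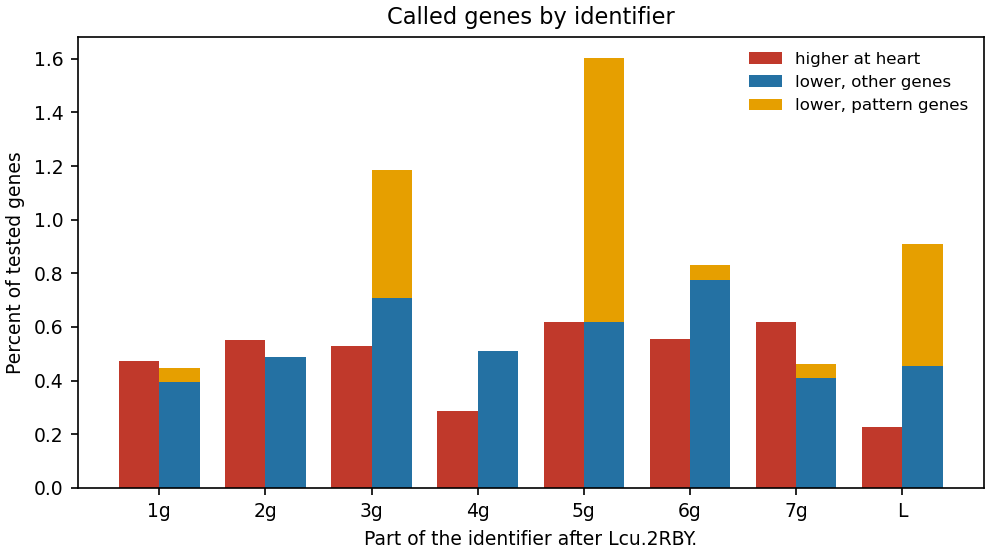
Percent of tested genes called higher at heart (red) and lower at heart (blue for other genes, orange for pattern genes, stacked) by the part of the identifier after Lcu.2RBY. The orange part is largest for 5g (0.982%), followed by 3g (0.48%) and L (0.454%, 4 of 881 tested genes), while the blue and red parts lie between 0.227% and 0.775% everywhere.

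Seed coat went through the same stages with few calls. In heart against globular seed coat, limma called 0 genes higher and 30 lower (0.102%), with 847 genes at an unadjusted p under 0.05, 452 of them higher at heart. Of these 30 genes, 24 were also lower in heart embryos, and all 24 were pattern genes. The 67 pattern genes had a median log2 change of -4.16 in seed coat and 0 in whole seed. In heart against globular whole seed, 402 genes were higher (1.37%) and 12 lower (0.0408%), and these included 3 of the 149 genes higher in embryo and 0 of the 229 lower ones. The 2 globular whole seed libraries were unlike in detection, with 45.7% and 28.1% of genes at 0, and the part of this in the whole seed result was not tested.

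A direct test of the embryo step minus the seed coat step found 9 genes with a higher step in embryo (0.0306%) and 12 with a lower one (0.0408%). All 9 were among the genes higher in heart embryos and all 12 among the lower genes outside the whole seed pattern. The embryo step is itself part of this difference, so the overlap with its calls is largely built in and adds no support. Lcu.2RBY.7g072040, described above, had 2.11 mean normalized reads in heart and 4.37 in globular seed coat, and its log2 step was 4.66 higher in embryo (SE 0.84, limma adjusted p = 0.0249). Lcu.2RBY.3g061190 had 770 and 1035 normalized reads in heart embryos and 240 and 113 in globular embryos, with means of 55.2 in heart and 136 in globular seed coat (difference of log2 steps 3.72, SE 0.68, limma adjusted p = 0.0249). In Lcu.2RBY.7g056120, with 192 in heart and 341 in globular seed coat, the difference was 3.60 (SE 0.66, limma adjusted p = 0.0249). For these 3 genes embryo was higher and seed coat lower by mean at heart, though none of the seed coat steps passed. The embryo step of Lcu.2RBY.3g061190 was not called without globular replicate 2 (limma adjusted p = 0.141) or heart replicate 2 (0.0682), and that of Lcu.2RBY.7g056120 without globular replicate 2 (0.0582).

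On the lower side, Lcu.2RBY.5g047280 had 207 and 117 normalized reads in heart embryos and 586 and 707 in globular embryos, with means of 342 in heart and 233 in globular seed coat. Its log2 step was lower in embryo by -2.59 (SE 0.40, limma adjusted p = 0.00552). Lcu.2RBY.5g073730 had 21.7 and 30.1 in heart embryos and 273 and 136 in globular embryos, while seed coat stood at 1835 at heart and 1346 at globular (difference -3.31, SE 0.64, limma adjusted p = 0.0322). Lcu.2RBY.4g043570 had 15.4 and 5.72 in heart embryos and 125 and 108 in globular embryos, and was near the floor in seed coat at 4.32 and 2.19 (difference -4.17, SE 0.85, limma adjusted p = 0.0398). In embryo all 3 had been higher at quadrant, at 4525, 3063 and 1405. The counts of 9 and 12 genes rested on each of the 4 seed coat libraries. They were 0 and 0 without seed coat heart replicate 1, 1 and 1 without heart replicate 2, 0 and 1 without globular replicate 1, and 1 and 2 without globular replicate 2. For the embryo libraries they were 8 and 41 without heart replicate 1, 33 and 6 without heart replicate 2, 25 and 7 without globular replicate 1, and 4 and 7 without globular replicate 2.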

How the data were processed

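RNA was extracted from dissected tissue and libraries were made with a low-input kit that amplifies RNA, per the labels' protocols. Per the submitters' processing notes, CASAVA, Trimmomatic, featureCounts and DESeq2 were used, with no versions named. For the aligner and the build, the sources used here say nothing. The deposited table holds 1 signal value per gene and library, and the authors had divided the read counts of a library by its own factor. Whole reads were recovered for 100% of values within 0.001 reads, by dividing by the smallest value above 0 of each library. No replicate pair of the 4 libraries agreed within sampling noise (mean chi-square per gene 27.8 for heart and 75.3 for globular).

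The test was limma 3.58.1 (R 4.3.3, trend and robust) on log2(normalized reads + 1), with a coefficient for each group and 25 residual degrees of freedom. This scale understates the change of low genes. The test took 29440 of 58243 genes, those reaching 10 normalized reads in 2 or more libraries. A call required a 2-fold change and an adjusted p below 0.05 (Benjamini-Hochberg, across every tested gene). The other genes were not tested. An exact permutation test of 2 libraries against 2 cannot reach 0.05 and was not used. Intervals (95%) and floors (3 counts per library) cover counting error only; these ratios and bounds pool the reads of a group over its summed factors.

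Named genes were called genes that reached 100 normalized reads in the higher stage, with no overlap between stages: the 10 largest folds and the 5 highest levels in each direction, and the 3 largest differences from the seed coat step. Genes typical of 1 tissue had at least 1000 normalized reads there at quadrant and torpedo and under 5% of that in the other. The members and lists were chosen with earlier results of these data known. The alternatives were other pseudocounts, filters and scalings, library weights, a replicate block, other sets of libraries, edgeR 4.0.16 and DESeq2 1.42.0 on recovered reads. Those chosen after seeing the data were leaving out the whole seed pattern genes, a crossed replicate block and counting only genes with at least 100 normalized reads. Only the limma fit of the embryo step was tried on simulated counts, with the same dispersion in all genes. The other fits were not tried this way.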

Additional observations from a re-analysis of the deposited data

Results flagged for a closer look

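The globular to heart step differed between embryo and seed coat, by the test of the difference itself, in 9 genes that were higher and 12 that were lower in embryo. The differences of log2 steps, embryo minus seed coat, were 4.66 in Lcu.2RBY.7g072040, 3.72 in Lcu.2RBY.3g061190 and 3.60 in Lcu.2RBY.7g056120. They were -4.17 in Lcu.2RBY.4g043570, -3.31 in Lcu.2RBY.5g073730 and -2.59 in Lcu.2RBY.5g047280. The seed coat step alone passed in none of these 6 genes, and it was called lower in only 30 of 29440 tested genes (0.102%) and higher in 0.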

How the results depend on the processing

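Numbers are genes higher and then lower at heart, against 149 and 229. They were 283 and 376 with library weights, 48 and 115 with embryo libraries only, 59 and 120 with the 4 libraries only, 270 and 257 with DESeq2, 125 and 137 with edgeR, 79 and 91 when only genes reaching 100 normalized reads at the higher stage were counted, and 137 and 135 without the whole seed pattern genes. Under the stricter pattern (at least 20 normalized reads, at most 5%), 143 and 159 were left. Without 1 of the 4 libraries they ranged over 54 to 178 and 54 to 192. Genes called alike in torpedo against quadrant, 144 and 214, became 259 and 333 with library weights, 48 and 113 with embryo libraries only, 250 and 241 with DESeq2, 116 and 131 with edgeR and 132 and 125 without pattern genes. Without 1 library these ranged over 48 to 174 and 46 to 265.

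Genes whose step was higher and lower in embryo than in seed coat, 9 and 12, became 13 and 7 with a pseudocount of 0.5, 25 and 48 with 8, 5 and 3 with no filter, 12 and 19 with quantile scaling, 135 and 159 with library weights, 7 and 5 with edgeR and 50 and 24 with DESeq2. Without 1 library they ranged over 0 to 33 and 0 to 41. The cause of these shifts was not tested, except that fits with fewer libraries have fewer degrees of freedom.

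Across tested genes, same-numbered heart and globular libraries did not deviate together (correlation of deviations -0.129). Genes are not replicates, so this cannot show whether the numbers pair the libraries. With a replicate block the step had 152 higher and 228 lower genes, torpedo against quadrant 145 and 216 of them, and the difference from seed coat 10 and 12; with crossed numbers the step had 154 and 232. DESeq2 gave no adjusted p for 6279 genes. For the 33 named genes, 527 combinations of a gene and a refit were compared. Of these combinations, 439 kept direction and call, 88 kept direction without passing and 0 reversed. Across all of their refits, 10 genes passed each time. The named genes that passed without each of the 4 libraries were 2 of 15 higher and 10 of 18 lower ones. A count of 0 allows up to 3.20 normalized reads in heart and 3.43 in globular embryos.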
